A study of Mus musculus with 4 samples.

Results

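The 37 genes described here run the cell division cycle and DNA replication. They were taken by symbol from the 24235 genes measured, in 5 groups by role: cyclin D and G1 kinases (6 genes), CDK inhibitors and Rb (4), E2F and cyclin E (4), S-phase genes (10) and mitotic genes (13). The cells were bone marrow derived macrophages, which are grown from marrow precursors with the growth factor M-CSF, of C57BL/6 mice aged 7 weeks. An mRNA library was made for each of 4 groups: wild type (WT) and Sema6D-/- cells, either left alone or treated for 4 h with 100 ng/ml LPS. LPS is lipopolysaccharide from the outer wall of bacteria, to which macrophages respond with inflammation. All 4 samples carried the same treatment text, so the titles were used to tell the unstimulated libraries from the stimulated ones. Which part of Sema6d, the gene of a membrane-bound semaphorin, was deleted is not given in the labels. With 1 library per group no difference has a replicate check, and every value describes these 4 libraries.

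In the textbook account, M-CSF drives macrophage precursors through G1 by raising D-type cyclins, which pair with the kinases Cdk4 and Cdk6 and phosphorylate the retinoblastoma protein Rb. Phosphorylated Rb releases E2F factors, which switch on cyclin E and the enzymes of DNA synthesis, while p21, p27 and p18 (the products of Cdkn1a, Cdkn1b and Cdkn2c) inhibit the kinases. Mitotic genes come on later, from promoters that typically carry CHR elements and CCAAT boxes. LPS is known to stop the M-CSF-driven proliferation of macrophages.

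The estimated depth was 17.3 to 23.6 M fragments per library, and 9682 to 10057 genes reached 1 FPKM (the deposited unit, which counts fragments per kilobase of a transcript at a fixed sequencing depth). Sema6d was not lower in the pair of libraries labelled Sema6D-/- (0.563 FPKM without LPS and 0.592 with LPS) than in WT (0.304 and 0.219). Every genotype ratio below would change sign if the genotype labels had been swapped. The genotypes also differed in sex: Xist, the RNA of the inactive X chromosome, measured 22.3 and 21.4 FPKM in WT and at most 0.0333 in the pair labelled Sema6D-/-, where the Y-linked Eif2s3y measured 33.5 and 50.4 FPKM. Sex and genotype cannot be told apart. The LPS-induced cytokine gene Tnf matched the titles, with 31.5 FPKM without and 357 with LPS in WT and 54.2 and 1794 in the pair labelled Sema6D-/-. Macrophage markers were found at 1 FPKM or more for all 9 genes that could be matched, with summed levels of 17482 to 24766 FPKM. Most of each sum was Lyz2, at 14435 to 19821 FPKM. Of 8 erythroid and megakaryocyte markers 2 reached 1 FPKM, and the list summed to 80.4 to 106 FPKM, nearly all of it Pf4, a platelet chemokine gene, at 79.5 to 105 FPKM, while the hemoglobin gene Hba-a1 was listed at 0 in all 4 libraries. In bulk RNA, fewer cells in cycle and less RNA of a gene per cell cannot be told apart.

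Every member was detected, and 36 or 37 of the 37 reached 1 FPKM in each library. The median member stood at 12.8 FPKM in WT without LPS and 10.8 with LPS, against 12.7 and 8.51 in the pair labelled Sema6D-/-. The unstimulated cells thus held transcripts for every stage of the cycle. Cdkn1a was the highest of the 37 in all 4 libraries and Pcna, the sliding clamp of DNA polymerases, the next highest. The fewest fragments behind a member's value were 39, for E2f2 in the library labelled Sema6D-/- with LPS, and the median member rested on 346 to 879 fragments per library.

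**Figure D1:**
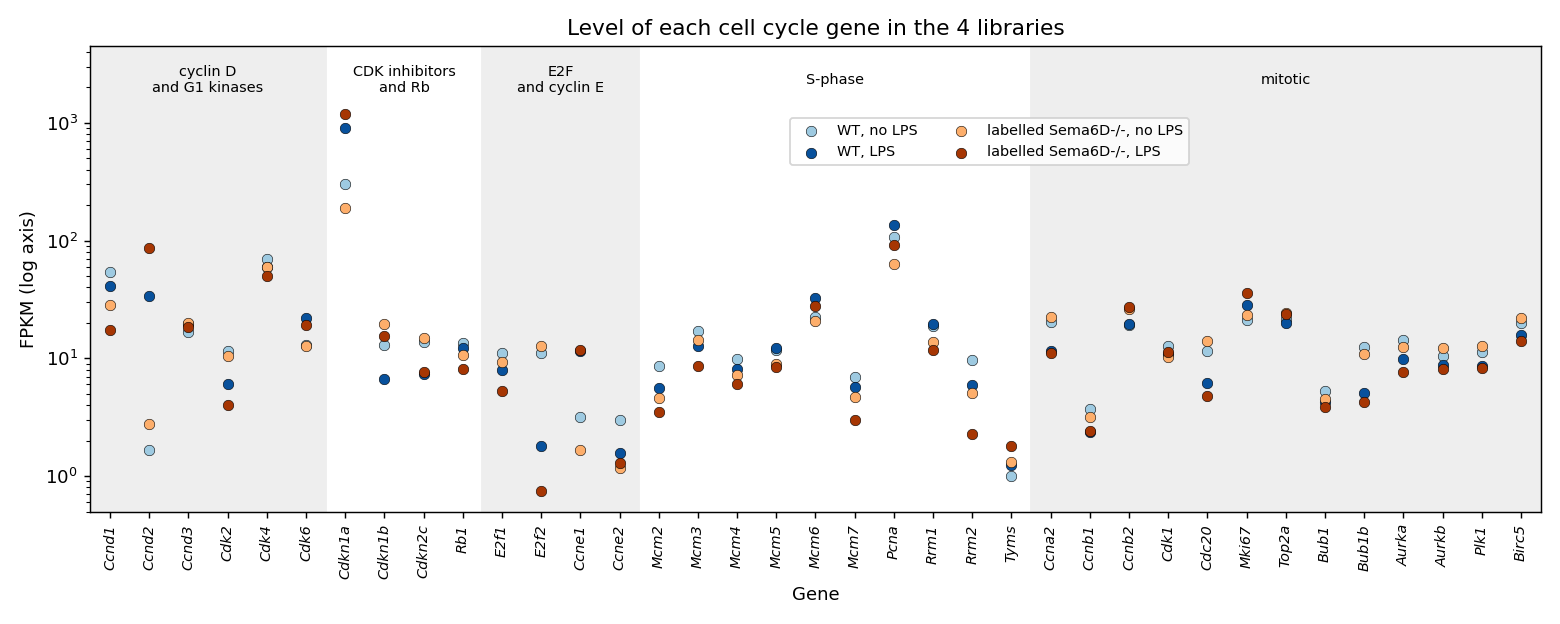
Level of each of the 37 genes (FPKM, log axis) in the 4 libraries, 1 point per library, ordered by role. Ccnd2, Cdkn1a and Ccne1 are the genes whose points with LPS lie far above those without, and E2f2 is the gene with the widest gap in the other direction.

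A log2 ratio below is log2((FPKM + 1)/(FPKM + 1)), which understates ratios at low levels. Square brackets after a plain ratio, computed without the added 1, hold its 95% exact binomial (Clopper-Pearson) interval from the recovered fragment numbers, which covers counting error only. In counts, a gene is higher or lower at a difference of 2-fold or more with the added 1; elsewhere these words give only the direction of the values. Each library enters an LPS comparison and a genotype comparison, so the 2 kinds share libraries. With LPS in WT, 3 of the 37 members were higher (8.11%, against 10.7% of the 10375 genes tested) and 2 were lower (5.41%, against 4.85%). In the libraries labelled Sema6D-/-, 3 were higher (8.11%, against 14.0% of 10398) and 4 lower (10.8%, against 8.81%). These shares lie near or below the background, and the members are described gene by gene. The median of the 37 was -0.26 in WT and -0.29 in the pair labelled Sema6D-/-, beside 0.00 and 0.01 over all genes tested. In both genotypes 23 members were below 0 and 9 above 0, while 5 lay on opposite sides.

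Among the D cyclins, the growth-factor sensors of G1, the balance lay further towards Ccnd2 with LPS. Ccnd2 measured 1.67 FPKM without and 33.6 with LPS in WT, and 2.76 and 85.9 in the pair labelled Sema6D-/-. This was 20.1-fold higher in WT (plain log2 ratio 4.33 [4.16, 4.50]) and 31.1-fold higher in the pair labelled Sema6D-/- (4.96 [4.81, 5.11]). Ccnd1, the D cyclin that M-CSF is best known to induce, went the other way, from 54.3 to 41.2 FPKM in WT (-0.40 [-0.46, -0.33]) and from 28.1 to 17.3 in the pair labelled Sema6D-/- (-0.70 [-0.81, -0.59]). Ccnd3 stayed between 16.6 and 19.9 FPKM in all 4 libraries.

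The make-up of the D cyclins differed more than their sum. Of the summed FPKM of the 3 genes, Ccnd1 made up 74.8% in WT without LPS and 43.7% with LPS. In the libraries labelled Sema6D-/- its share was 55.4% and 14.2%. Ccnd2 held 2.30% and 35.6% in WT, and 5.44% and 70.5% in the pair labelled Sema6D-/-, so that it was the main D cyclin in 1 library of the 4. The sum itself was 72.6 and 94.4 FPKM in WT against 50.8 and 122 FPKM in the other genotype. In WT the direction of the sum with LPS depends on how libraries were scaled to each other. The summed FPKM of all genes in WT was 369407 without and 533551 with LPS. The shares of the 3 genes are taken within a library and do not depend on that scaling.

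**Figure D2:**
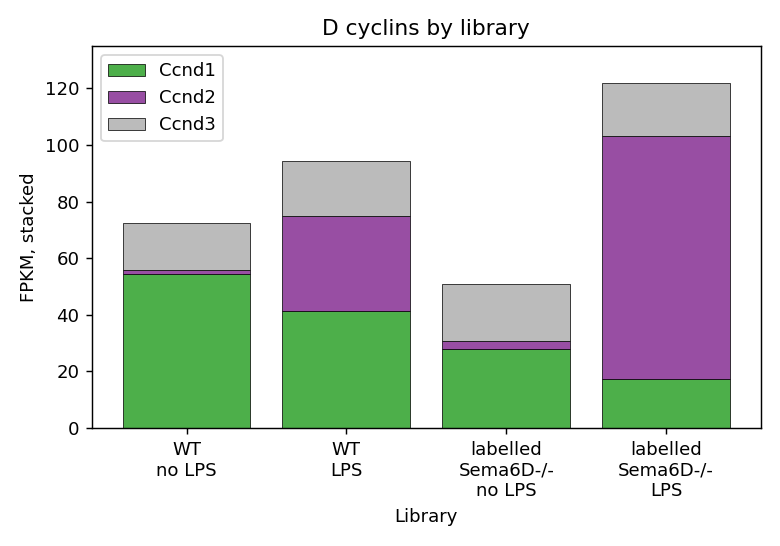
FPKM of the 3 D cyclins stacked by library, 1 bar per library. Ccnd1 is the largest segment in 3 bars, and Ccnd2 is the largest in the library labelled Sema6D-/- with LPS, at 70.5% of the sum.

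Ccnd1 and Ccnd2 also stood apart by genotype, in opposite directions. Without LPS, Ccnd1 was lower in the library labelled Sema6D-/- than in WT (28.1 against 54.3 FPKM, -0.95 [-1.02, -0.88]) and with LPS it was lower again (17.3 against 41.2 FPKM, -1.25 [-1.36, -1.15]). Ccnd2 was higher in the library labelled Sema6D-/- without LPS (0.72 [0.50, 0.94]) and with LPS (85.9 against 33.6 FPKM, 1.35 [1.30, 1.41]). The ratio of Ccnd2 to Ccnd1 accordingly ran from 0.0308 in WT without LPS through 0.0982 in the library labelled Sema6D-/- without LPS and 0.814 in WT with LPS to 4.97 in the library labelled Sema6D-/- with LPS.

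Among the kinases, Cdk4 was the most abundant in all 4 libraries and varied little, from 50.5 to 69.8 FPKM. Cdk6, its close relative in G1, was higher with LPS in both genotypes, at 21.8 against 12.9 FPKM in WT (log2 ratio 0.72) and 19.2 against 12.8 in the pair labelled Sema6D-/- (0.55, or -0.16 when the libraries are brought to a common total). Cdk2, the kinase of cyclins E and A, was lower with LPS. It measured 11.6 and 6.00 FPKM in WT (-0.96 [-1.17, -0.75]) against 10.6 and 4.04 in the pair labelled Sema6D-/- (-1.39 [-1.67, -1.11]). The LPS ratios of the 6 genes of this group ranged widely, around a median of 0.01 in WT and -0.17 in the pair labelled Sema6D-/-.

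The CDK inhibitors did not share a direction with LPS. Cdkn1a, which encodes p21, measured 302 FPKM without and 910 with LPS in WT, a 3.02-fold difference (1.59 [1.57, 1.62]). In the libraries labelled Sema6D-/- it measured 190.3 and 1186 FPKM, a 6.23-fold difference (2.64 [2.60, 2.68]). Cdkn1a was the only member whose LPS ratios differed between the genotypes by 2-fold or more (1.04 on the log2 scale), 1 of 37 against 1.83% of 10680 genes in that direction and 0 of 37 against 1.25% in the other. With the libraries brought to a common total no member passed, while without the added 1 E2f2 (-1.50) and Ccne2 (1.04) also passed. Ccne2 was of low level in all 4 libraries (at most 2.99 FPKM). E2f2 was of low level only with LPS (1.81 and 0.745 FPKM, against 11.0 and 12.8 without). For Cdkn1a the library labelled Sema6D-/- lay below WT without LPS (-0.66) and above it with LPS (0.38), so both ends contributed to its difference.

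Cdkn1b, the gene of p27, was lower with LPS, at 6.71 against 12.9 FPKM in WT (-0.94 [-1.14, -0.75]) and 15.4 against 19.6 in the pair labelled Sema6D-/- (-0.35 [-0.50, -0.20]). It was higher in the pair labelled Sema6D-/- in both states, by 0.60 [0.47, 0.74] without and 1.19 [0.99, 1.40] with LPS. Cdkn2c, the gene of p18, hardly differed by genotype and was lower with LPS in both, from 13.8 to 7.29 FPKM in WT and from 14.8 to 7.63 in the pair labelled Sema6D-/-. Rb1, the gene of the retinoblastoma protein itself, measured 13.4 and 12.2 FPKM in WT against 10.8 and 8.05 in the pair labelled Sema6D-/-. Cdkn1a alone made up 84.7 to 98.5% of the summed FPKM of the 3 inhibitors, and its ratio to the summed D cyclins was 4.15 in WT without LPS, 9.64 with LPS, and 3.75 and 9.74 in the pair labelled Sema6D-/-. That ratio was thus close between genotypes in either state, although the make-up of the D cyclins differed.

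The E2F and cyclin E group held the lowest LPS ratio of the whole set beside one of the 3 highest. E2f2, an activator E2F, measured 11.0 FPKM without and 1.81 with LPS in WT, 6.09-fold lower (-2.61 [-2.89, -2.33]). In the libraries labelled Sema6D-/- it measured 12.8 and 0.745 FPKM, 17.2-fold lower (-4.10 [-4.60, -3.64]). E2f1, the other activator in the set, went only from 11.2 to 7.98 FPKM in WT and from 9.28 to 5.23 in the pair labelled Sema6D-/-. Both annotated variants of E2f2 were lower with LPS, 1 of them from 4.24 to 1.03 FPKM in WT and from 5.24 to 0.427 in the other genotype.

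Ccne1, the cyclin that with Cdk2 starts DNA synthesis, was higher with LPS while Cdk2 was lower. It measured 3.19 and 11.5 FPKM in WT (1.84 [1.59, 2.11]) against 1.68 and 11.7 in the pair labelled Sema6D-/- (2.80 [2.41, 3.20]). With LPS the genotypes could not be told apart in Ccne1 at this depth (0.03 [-0.18, 0.24]), while without LPS the library labelled Sema6D-/- was lower (-0.93 [-1.35, -0.51]). Ccne2, its close relative, measured 2.99 and 1.59 FPKM in WT against 1.18 and 1.29 in the pair labelled Sema6D-/-. Ccne1 accordingly made up 51.7% and 87.8% of the 2 E cyclins in WT without and with LPS, and 58.8% and 90.1% in the pair labelled Sema6D-/-. The variant of Ccne2 that held 99.95% of its FPKM in WT without LPS held 10.1 to 14.2% in the other 3 libraries, so the values of that gene depend on how reads were assigned to variants.

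Ccnd2, Cdkn1a and Ccne1 were the members 2-fold or more higher with LPS in both genotypes, and they stayed so under each of the 3 other scalings tried. With the libraries brought to a common total, their log2 ratios were 3.29, 1.06 and 1.13 in WT and 3.87, 1.88 and 1.64 in the pair labelled Sema6D-/-. E2f2 and Bub1b were the members 2-fold or more lower in both. Ratios nearer to 0 depended on the scaling: the summed FPKM was 369407 without and 533551 with LPS in WT, and 370648 and 625812 in the pair labelled Sema6D-/-. Bringing them to a common total shifted the median LPS ratio of the 6110 genes that reached 5 FPKM in each library by -0.51 and -0.71, and single members by other amounts. It turned the sign of 7 of the 37 members in WT and 8 in the pair labelled Sema6D-/-.

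**Figure D3:**
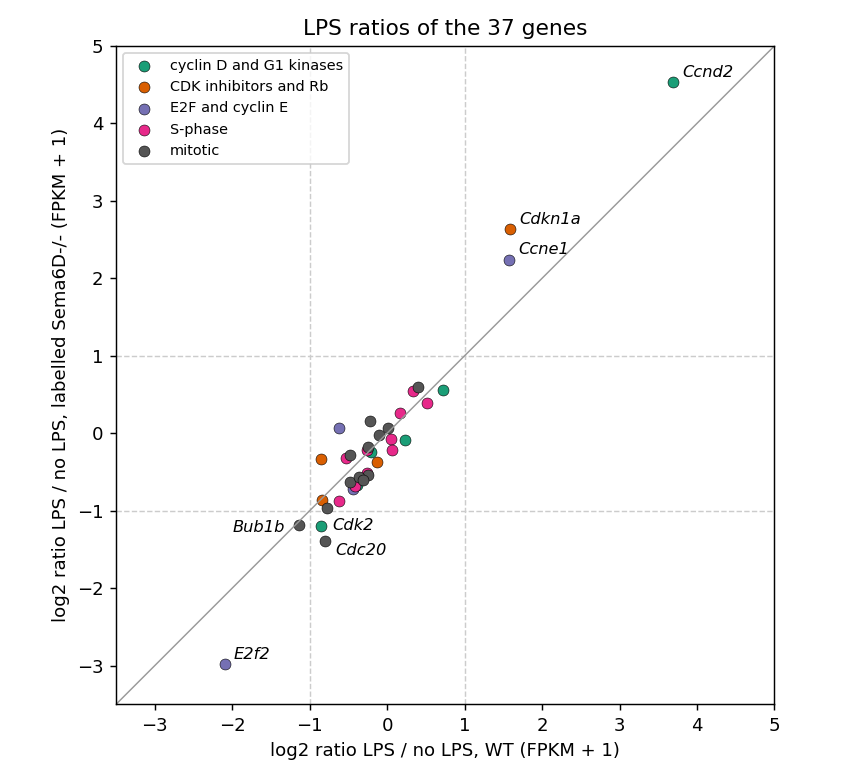
LPS log2 ratio of each of the 37 genes in WT (x axis) against the libraries labelled Sema6D-/- (y axis), colored by role, with dashed lines at 2-fold and the line of equal ratios. Ccnd2, Cdkn1a and Ccne1 lie past 2-fold at the upper right, E2f2 and Bub1b at the lower left, and Cdk2 and Cdc20 pass the line in the pair labelled Sema6D-/- only, a difference that was not tested.

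The S-phase genes had LPS medians of -0.11 in WT and -0.22 in the pair labelled Sema6D-/-. None of the 10 passed 2-fold with the added 1. The Mcm genes encode the 6 subunits of 1 ring-shaped replicative helicase, yet their transcripts did not keep step. Mcm6 was higher with LPS, at 32.4 against 22.4 FPKM in WT (0.53 [0.44, 0.63]) and 27.7 against 20.9 in the pair labelled Sema6D-/- (0.41 [0.30, 0.52]). Mcm2, Mcm3, Mcm4 and Mcm7 were lower with LPS in both genotypes, Mcm3 from 17.2 to 12.7 FPKM in WT and from 14.4 to 8.65 in the pair labelled Sema6D-/-. For Mcm5 the counting interval held 0 in both (0.05 [-0.08, 0.18] and -0.08 [-0.26, 0.09]). As deposited, the sum of the 6 hardly differed with LPS (76.9 and 76.7 FPKM in WT, 60.9 and 57.4 in the pair labelled Sema6D-/-). The share of Mcm6 in it went from 29.2% to 42.3% in WT and from 34.3% to 48.2% in the pair labelled Sema6D-/-. When the libraries were brought to a common total, Mcm2, Mcm3, Mcm4, Mcm5 and Mcm7 were all below 0 with LPS in both genotypes. Their log2 ratios then ran from -1.37 (Mcm3, labelled Sema6D-/-) to -0.45 (Mcm5, WT). The log2 ratio of Mcm6 became 0.003 in WT and -0.33 in the pair labelled Sema6D-/-. The comparison of the sum thus depends on that scaling, but the share of Mcm6 within a library does not.

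Pcna resembled Mcm6 and not the other helicase subunits. It measured 108 FPKM without and 136 with LPS in WT (0.33), and 63.1 and 92.4 in the pair labelled Sema6D-/- (0.54). Both ratios became -0.20 with a common total. Rrm1 and Rrm2, the large and small subunits of ribonucleotide reductase, which makes the building blocks of DNA, parted. Rrm2 was lower with LPS, at 9.62 and 5.90 FPKM in WT (-0.70 [-0.93, -0.48]) against 5.03 and 2.28 in the pair labelled Sema6D-/- (-1.14 [-1.54, -0.76]), while Rrm1 measured 18.8 and 19.7 FPKM in WT against 13.8 and 11.8 in the other genotype. Tyms, the gene of thymidylate synthase, was the lowest member in WT without LPS at 0.998 FPKM and measured 1.25 with LPS, and 1.33 and 1.79 FPKM in the pair labelled Sema6D-/-. Its values rest on few fragments, and in WT with LPS 99.9% of its FPKM was assigned to a non-coding variant that held at most 1.67% elsewhere.

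The 13 mitotic genes had LPS medians of -0.32 in WT and -0.54 in the pair labelled Sema6D-/-, and 10 of the 13 were below 0 in both. Their counting intervals lay below 0 for 11 genes in WT and 8 in the pair labelled Sema6D-/-, and above 0 for 1 and 2. These intervals cover counting error only, and no such count was made over all genes. With the libraries brought to a common total, all 13 log2 ratios lay below 0 in both genotypes. Bub1b, which encodes the spindle checkpoint protein BubR1, was lower, from 12.4 to 5.12 FPKM in WT (-1.28 [-1.45, -1.11]) and from 10.9 to 4.25 in the pair labelled Sema6D-/- (-1.36 [-1.57, -1.15]). Cdc20, the activator of the ligase that starts anaphase, measured 11.6 and 6.22 FPKM in WT (-0.90 [-1.14, -0.66]) against 14.1 and 4.75 in the pair labelled Sema6D-/- (-1.57 [-1.86, -1.28]). Ccna2, the cyclin of S phase and mitotic entry, was lower as well, at 20.4 and 11.5 FPKM in WT against 22.5 and 11.1 in the pair labelled Sema6D-/-. These 3 genes had the lowest LPS ratios of the mitotic group in both genotypes.

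The kinases of mitosis and their partners were lower by smaller amounts. Aurka, the spindle pole kinase, measured 14.2 and 9.89 FPKM in WT against 12.4 and 7.67 in the pair labelled Sema6D-/-. Plk1, which acts from mitotic entry to cytokinesis, measured 11.4 and 8.61 FPKM in WT against 12.7 and 8.25 in the other genotype. Aurkb and Birc5 encode partners in the chromosomal passenger complex, and their LPS log2 ratios were -0.24 and -0.32 in WT and -0.54 and -0.60 in the pair labelled Sema6D-/-. Bub1, which places checkpoint proteins on kinetochores, and Ccnb1, the main partner of Cdk1, stayed at or below 5.27 FPKM in every library, with log2 ratios of -0.25 and -0.47 in WT and -0.18 and -0.29 in the pair labelled Sema6D-/-.

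Part of the mitotic group did not follow. Mki67, the gene of the proliferation marker Ki-67, was higher with LPS, from 21.3 to 28.5 FPKM in WT (0.42 [0.37, 0.47]) and from 23.5 to 36.0 in the pair labelled Sema6D-/- (0.61 [0.56, 0.67]). With a common total its log2 ratios became -0.11 and -0.14, so its direction depends on the scaling, while its position above the other mitotic genes does not. Top2a, which untangles sister chromosomes, stayed between 19.8 and 24.2 FPKM in all 4 libraries, and Ccnb2 measured 19.3 and 19.4 FPKM in WT against 26.2 and 27.5 in the pair labelled Sema6D-/-. Cdk1, the mitotic kinase, was lower with LPS in WT (12.8 and 10.8 FPKM, -0.24 [-0.36, -0.12]) and higher in the pair labelled Sema6D-/- (10.2 and 11.4 FPKM, 0.16 [0.03, 0.30]). With the added 1 the ratio in the pair labelled Sema6D-/- was 0.15, and it became -0.54 with a common total. Centring on the median or on a trimmed mean brought it close to 0 (-0.0005 and -0.0013).

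The difference between the median of the S-phase genes and that of the mitotic genes was 0.21 with LPS in WT and 0.32 in the pair labelled Sema6D-/-. In WT it became 0.02 when only members at 5 FPKM or more in a library compared were kept, and 0.05 when only the leading transcript of each gene was used. The D cyclins and kinases joined with the inhibitors and Rb, 10 genes, had medians of -0.17 and -0.29, between those of the S-phase and the mitotic genes. In WT these 10 ranged from -0.85 (Cdk2 and Cdkn1b) to 3.69 (Ccnd2), a range that holds every S-phase gene.

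Between the genotypes the medians of the S-phase and the mitotic genes lay further apart than with LPS. No member was 2-fold higher or lower in the library labelled Sema6D-/- without LPS (0 of 37, against 2.51% higher and 2.19% lower of 10322 genes), although without the added 1 Ccne2 was (-1.34 [-1.74, -0.96]). With LPS, 2 were higher (Ccnd2 and Cdkn1b, 5.41% against 3.09% of 10078 genes) and 2 lower (Ccnd1 and Rrm2, 5.41% against 3.18%), and E2f2 passed only without the added 1 (-1.28 [-1.85, -0.75]). Of the 10 S-phase genes, 9 had genotype log2 ratios below 0 in both states, and Tyms was the exception. Each of the 9 had a counting interval below 0 both times, but no such count was made over all genes. Of the 13 mitotic genes, 3 had genotype log2 ratios below 0 in both states, 3 above 0 in both and 7 on opposite sides. The S-phase medians were -0.41 without LPS and -0.52 with LPS, the mitotic medians 0.14 and -0.05, and the medians of all genes tested 0.04 and 0.04.

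The gap between both groups, S-phase median minus mitotic median, was -0.55 without LPS and -0.47 with LPS. Pcna measured 108 FPKM in WT and 63.1 in the library labelled Sema6D-/- without LPS (-0.77 [-0.85, -0.69]), and 136 and 92.4 with LPS (-0.55 [-0.63, -0.47]). Mcm2 measured 8.56 and 4.63 FPKM without LPS (-0.89 [-1.08, -0.70]) and 5.63 and 3.51 with LPS (-0.68 [-0.95, -0.42]). Rrm2 was the lowest of the group in both states relative to WT (-0.94 [-1.16, -0.71] and -1.37 [-1.77, -0.99]). On the mitotic side, Ccnb2 was higher in the pair labelled Sema6D-/- in both states (0.44 [0.29, 0.58] and 0.50 [0.33, 0.67]), as were Top2a (0.17 [0.10, 0.25] and 0.26 [0.17, 0.35]) and Mki67 (0.14 [0.09, 0.20] and 0.34 [0.28, 0.39]). All 3 stayed below 2-fold. With the libraries brought to a common total, their log2 ratios with LPS became 0.26 for Ccnb2, 0.03 for Top2a and 0.10 for Mki67. On that scaling 10 of the 13 mitotic genes were below 0 with LPS (median -0.26, against -0.71 for the S-phase genes).

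The same split was visible within each library, where scaling between libraries plays no part. The S-phase genes without Pcna summed to 0.577 of the mitotic sum in WT without LPS and 0.685 with LPS, against 0.408 and 0.449 in the pair labelled Sema6D-/-. Both values of WT lay above both values of the other genotype.

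**Figure D4:**
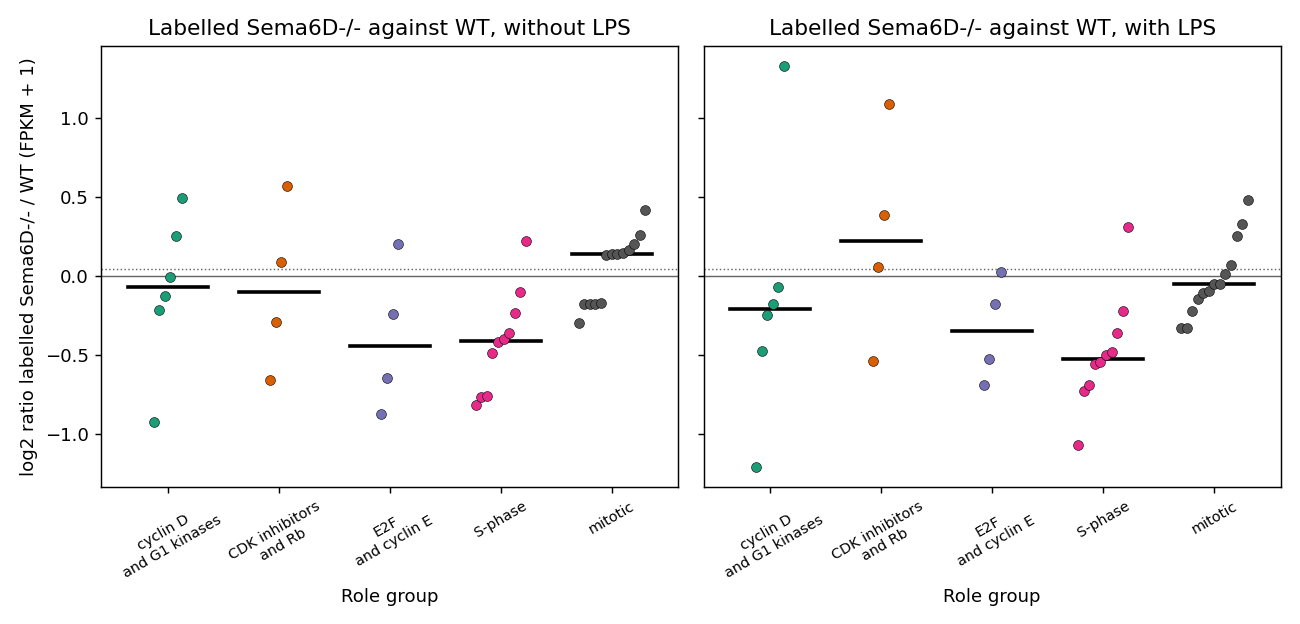
Genotype log2 ratios (labelled Sema6D-/- over WT) of the 37 genes by role, without LPS (left) and with LPS (right). Each point is a gene, the thick line is the median of the group and the dotted line the median of all genes tested. The S-phase medians are -0.41 and -0.52, the mitotic medians 0.14 and -0.05.

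Most neutrophil markers differed by genotype in the same direction as the S-phase genes. Of the 9 measured, 8 without LPS and 7 with LPS had log2 ratios below 0 in the pair labelled Sema6D-/- against WT. Csf3r was higher there in both states (26.9 against 20.2 FPKM without LPS and 62.8 against 50.8 with LPS). Retnlg was higher there with LPS only (4.31 against 3.79 FPKM). Of 10 neutrophil markers 9 reached 1 FPKM, led by S100a8 and with Ly6g below 1 in all 4 libraries, and the sum of the list was 881 FPKM in WT without LPS and 1352 with LPS, against 285 and 456 in the pair labelled Sema6D-/-. Granule genes of early myeloid cells did likewise. Mpo measured 13.4 and 13.7 FPKM in WT against 6.47 and 6.26 in the pair labelled Sema6D-/-, and Elane 13.3 and 18.0 against 3.92 and 5.29. The progenitor markers Kit and Flt3 stayed below 1 FPKM in all 4 libraries. The list of 10 monocyte and progenitor markers, 8 of them at 1 FPKM or more, was split. Genotype log2 ratios were below 0 for 4 of the 8 measured without LPS and 4 of the 7 measured with LPS (medians -0.44 and -0.99). The sums of the list were nevertheless higher in the pair labelled Sema6D-/-, at 354 and 728 FPKM against 270 and 463 in WT. Ly6c2, the most abundant gene of the list, measured 183 and 457 FPKM there against 98.7 and 247. Of 11 lymphocyte markers 2 reached 1 FPKM, and the list summed to 15.7 and 10.5 FPKM in WT against 5.49 and 3.66 in the pair labelled Sema6D-/-, mostly Cd79b, a B cell receptor subunit. Dendritic cell markers, 3 of 8 at 1 FPKM or more and led by Itgax, summed to 1.73 and 4.91 FPKM in WT against 9.58 and 24.7. The part of these cells in the S-phase values was not tested, and the sex of the cells, which also went with genotype, cannot be told apart from it.

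Promoter sequences were available from RefSeq (GRCm38.p6, 250 bases before to 50 after the start) for 30 of the 37 members. They are shown for the S-phase and mitotic groups because those 2 groups parted between genotypes. The motifs searched, on both strands, were the E2F site TTTCCCGC or TTTGGCGC, the CHR element TTTGAA and the CCAAT box. None of the 74 matches in the members overlapped a match of another motif. Each stretch below runs 5′ to 3′ on the strand of its gene and ends before the annotated start, and capitals mark the motif matches, read on either strand.

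The first 3 belong to helicase subunits with an E2F site, Mcm6 (chr1:128359741-128359820, minus strand), Mcm7 (chr5:138172005-138172084, minus strand) and Mcm5 (chr8:75109324-75109403, plus strand). Mcm6, the subunit that was higher with LPS, has 2 E2F sites and a CCAAT box between them.
Mcm6: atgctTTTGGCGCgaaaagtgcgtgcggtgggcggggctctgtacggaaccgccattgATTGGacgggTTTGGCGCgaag
Mcm7: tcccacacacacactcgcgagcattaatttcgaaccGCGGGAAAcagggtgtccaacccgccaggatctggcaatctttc
Mcm5: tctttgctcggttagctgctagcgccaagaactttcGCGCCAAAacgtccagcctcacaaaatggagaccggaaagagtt

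The next 4 belong to mitotic genes with a CHR element, Cdk1 (chr10:69352913-69352992), Cdc20 (chr4:118437344-118437423), Top2a (chr11:99024190-99024269) and Mki67 (chr7:135716444-135716523), all on the minus strand. Cdc20 was among the lowest mitotic genes with LPS and Mki67 the highest, and both carry the element.
Cdk1: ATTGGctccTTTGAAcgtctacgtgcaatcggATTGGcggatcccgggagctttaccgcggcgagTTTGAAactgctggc
Cdc20: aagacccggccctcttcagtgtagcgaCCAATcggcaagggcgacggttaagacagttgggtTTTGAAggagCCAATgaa
Top2a: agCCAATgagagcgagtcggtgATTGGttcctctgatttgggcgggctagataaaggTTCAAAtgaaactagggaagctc
Mki67: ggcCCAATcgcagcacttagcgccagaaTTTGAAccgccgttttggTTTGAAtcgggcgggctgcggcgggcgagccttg

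The E2F site was found in 4 of the 9 S-phase genes with a promoter (44.4%; Mcm3, Mcm5, Mcm6 and Mcm7) and in 0 of the 11 mitotic genes, against 1.80% of all 27025 genes with a promoter. Outside these groups it was found in Cdk2 and E2f2. The CHR element was found in 8 of the 11 mitotic genes (72.7%) and in 1 of the 9 S-phase genes (Mcm2, 11.1%), against 20.2% of all genes. All 8 of those mitotic genes also held a CCAAT box, a pair found in 8.97% of all genes. The CCAAT box did not separate the groups, with 8 of 9 S-phase and 10 of 11 mitotic genes, against 41.1% of all. Within the S-phase group Mcm6, which was higher with LPS, and Mcm3 and Mcm7, which were lower, shared the E2F site, and the mitotic genes with a CHR element ranged in WT from Bub1b (log2 ratio -1.13) to Mki67 (0.40). A match is a description of the letters, and its absence says only that they are not in this window.

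**Figure D5:**
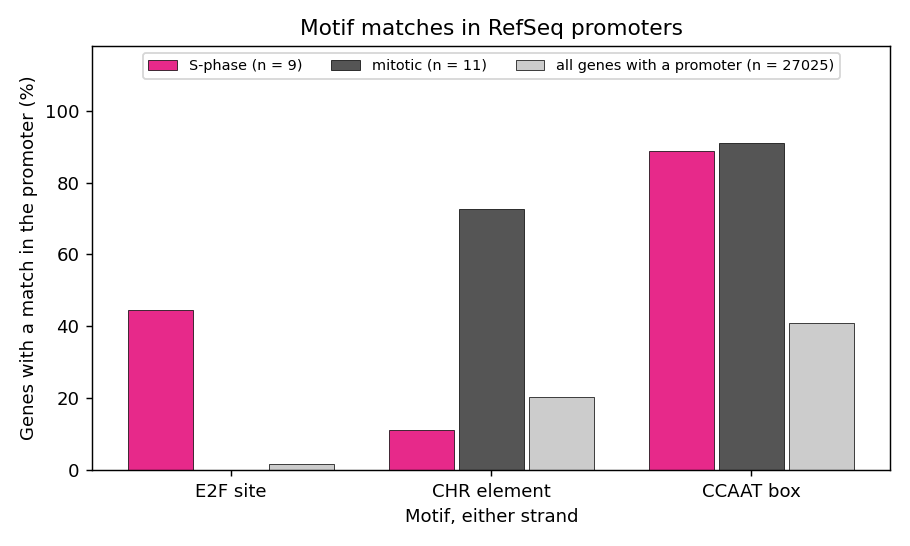
Percent of genes whose RefSeq promoter holds each motif on either strand, for the S-phase genes (n = 9), the mitotic genes (n = 11) and all genes with a promoter (n = 27025). The E2F site stands at 44.4% in the S-phase group and 0 in the mitotic group, and the CHR element at 72.7% in the mitotic group.

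Other genes of the cycle were read from lists drawn up by function. With LPS, the counts of each list stand against 10.7% higher and 4.85% lower of all genes tested in WT, and 14.0% and 8.81% in the pair labelled Sema6D-/-. Of 31 genes of the spindle, kinetochore and cytokinesis, WT with LPS had 1 past 2-fold upward and 0 downward (median -0.35), and in the pair labelled Sema6D-/- 2 were higher (against 14.0% of all genes) and 5 lower (against 8.81%; median -0.47). Pttg1, the gene of securin, which guards sister chromatid cohesion, was higher (log2 ratios 1.63 and 1.91), and the kinesin gene Kif20a was lower (-0.96 and -1.42). By genotype this list had a median of 0.04 in each state with 0 genes past 2-fold. Of 29 genes of the replication fork, 2 were higher and 1 lower in WT and 2 higher and 3 lower in the pair labelled Sema6D-/- (medians -0.20 and -0.23). The genotype medians of the fork list were -0.10 and -0.17, smaller in size than those of the S-phase members. Of its 29 genes 21 were below 0 without LPS, and of the 27 measured with LPS 17 were.

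In the list of origin licensing and firing, the steps that load and start the Mcm helicase, 1 gene was higher and 1 lower with LPS in WT, of 16, and 1 higher and 3 lower of 15 in the pair labelled Sema6D-/-. Gmnn, the gene of geminin, which blocks loading of the helicase, measured 12.1 and 6.59 FPKM in WT against 13.7 and 1.71 in the pair labelled Sema6D-/-. Cdt1, the loading factor that geminin holds back, measured 31.7 and 20.5 FPKM in WT against 16.8 and 7.59 in the pair labelled Sema6D-/-. Both were lowest in the library labelled Sema6D-/- with LPS, 2-fold or more below WT with LPS (log2 ratios -1.48 and -1.32). By genotype without LPS they differed, with log2 ratios of -0.87 for Cdt1 and 0.16 for Gmnn. The genotype medians of the whole list were -0.10 without LPS (9 of 16 genes below 0) and -0.15 with LPS (9 of 15). Mcm10, which helps start the helicase, was higher with LPS (1.47 and 1.88).

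Among 14 other E2F, pocket protein and DREAM genes, Rbl1, the gene of the Rb relative p107, was higher with LPS, at 18.5 against 5.77 FPKM in WT and 42.7 against 6.89 in the pair labelled Sema6D-/-. E2f6, a repressor E2F, was lower, at 3.80 against 8.34 and 2.83 against 9.09 FPKM. The list as a whole had 1 gene higher and 0 lower in WT and 3 higher and 1 lower in the pair labelled Sema6D-/-. Of the other CDK inhibitor genes, 2 were measured with LPS in WT and 1 in the pair labelled Sema6D-/-, and 0 passed 2-fold. By genotype, 1 of the 2 measured without LPS was higher in the library labelled Sema6D-/- (1.02, against 2.51% of all genes). With LPS the 1 gene measured was higher there (1.39, against 3.09%). Of the genes that set the supply of deoxynucleotides, 2 were higher and 0 lower of 8 in WT, and 2 higher and 1 lower of 7 in the pair labelled Sema6D-/-. The 2 higher in each genotype were Samhd1, which breaks deoxynucleotides down, and Dck. Samhd1 measured 143 and 468 FPKM in WT against 158 and 675 in the pair labelled Sema6D-/-. Dck measured 36.1 and 153 FPKM in WT against 66.1 and 198 in the other genotype. The member Rrm2, which makes deoxynucleotides, was lower with LPS, so these genes did not share a direction. The genotype medians of the deoxynucleotide list were 0.06 without LPS (4 of 8 genes below 0) and -0.18 with LPS (6 of 8).

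Regulators upstream of the cycle held some of the largest values. Of 15 genes of the p53 response and of growth arrest, 3 were higher and 2 lower in WT (against 10.7% and 4.85% of all genes) and 5 higher and 4 lower in the pair labelled Sema6D-/- (against 14.0% and 8.81%). Gadd45b, a stress-induced growth arrest gene, was higher (1.65 and 2.42), in the direction of the p53 target Cdkn1a. Sesn1, a p53 target that restrains growth signalling, went the other way and measured 41.8 and 2.38 FPKM in WT against 38.2 and 1.17 in the pair labelled Sema6D-/-. Of 7 genes of the Myc network and the M-CSF receptor, 2 were higher and 2 lower in WT (against the same 10.7% and 4.85%) and 2 higher and 4 lower in the pair labelled Sema6D-/- (against 14.0% and 8.81%). Mxd1, which competes with Myc for its partner Max, measured 6.15 and 161 FPKM in WT against 9.03 and 209 in the pair labelled Sema6D-/-. Mnt, another such antagonist, was lower, at 8.16 and 1.15 FPKM in WT against 7.89 and 0.521 in the pair labelled Sema6D-/-, and Max itself was higher (1.44 and 1.85). Of 14 phosphatases, kinases and ligases of the cycle, 0 were higher and 4 lower in each genotype (against 4.85% lower of all genes in WT and 8.81% in the pair labelled Sema6D-/-), among them Cdc25b, which activates mitotic kinases (-1.42 and -1.38), and the checkpoint kinase gene Chek2 (-1.22 and -1.61). The 8 condensin and other chromosome condensation genes held 0 past 2-fold in either.

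The 5 genes whose profile over the 4 libraries was nearest to the mean profile of the mitotic members were Zdhhc12, Dync1li2, Wasf2, Commd8 and Gas2l1, among 6000 genes outside the lists that reached 5 FPKM in each of the 4 libraries. Their Euclidean distances on the centred log2(FPKM + 1) scale were 0.024 to 0.037. The mitotic members themselves lay at 0.102 (Plk1) to 0.929 (Mki67). Those 5 genes were picked as the nearest of the 6000, so their distances cannot be set against those of the members. The likeness is a description over 4 libraries only.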

How the data were processed

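Stranded mRNA libraries of 4 macrophage samples, 1 per group, were available as FPKM per RefSeq transcript, made by the authors with Cuffnorm 2.2.1, TopHat2 2.0.13, SAMtools 0.1.19 and Bowtie2 2.2.3 (build mm9), per the submitters' processing notes, which give no order. The handling of reads that match several places and the scaling between libraries are not given in the sources used here. Pseudogene copies of Ccnd3, Pcna, Tyms, Ccnb1 and Ccnb2 make those values uncertain. Of 34487 transcripts, 34163 were named from the RefSeq GRCm38 table and 187 from GENCODE vM21, and the 137 others were left out. Transcripts were summed per gene (24235 genes). The 37 members come from 52 transcripts.

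Genes at 1 FPKM or more in a library compared were tested against a 2-fold size rule on log2(FPKM + 1). There was no statistical test, since each group had 1 library. Fragment numbers came from the step size among low FPKM values (73.5 to 75.4% whole within 0.1, against 20% by chance). The scripts were tested on simulated data (Python 3.11.15, scipy 1.17.1). The members, pathway lists and promoter motifs were chosen with earlier results of these data known. All 37 members are named. From each pathway list, up to 4 genes past 2-fold with LPS in at least 1 genotype were taken by the size of their mean LPS ratio. The text names only some of these, picked without a further rule, and leaves out others of higher rank, such as Orc5 and Mxd4.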

Additional observations from a re-analysis of the deposited data

Results flagged for a closer look

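Cdk1 was the member whose LPS ratio had opposite directions in both genotypes with each counting interval away from 0. The plain log2 ratio was -0.24 [-0.36, -0.12] in WT and 0.16 [0.03, 0.30] in the pair labelled Sema6D-/-, a difference of 0.40. With 1 library per group this difference was not tested. With the added 1 the ratio in the pair labelled Sema6D-/- was 0.15, and it became -0.54 with a common total. Centring on the median or on a trimmed mean brought it close to 0 (-0.0005 and -0.0013).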

How the results depend on the processing

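No paired analysis was possible because each group had 1 library, and for the same reason no library could be left out. Depth limits the members under about 2 FPKM, and variant assignment limits Ccne2 and Tyms. With a common total, the median of the members became -0.74 with LPS in WT (9 members lower), -0.92 in the pair labelled Sema6D-/- (17 lower) and -0.39 for genotype with LPS (1 higher), and 0 members passed for the difference of LPS responses. Over all genes tested, that scaling moved the counts with LPS from 1114 higher and 503 lower to 713 and 1502 in WT, and from 1453 and 916 to 745 and 3008 in the pair labelled Sema6D-/-. For genotype with LPS they moved from 311 and 320 to 188 and 410, and for the difference from 195 and 134 to 123 and 222. Centring on the median or on a trimmed mean gave 7 members lower with LPS in the pair labelled Sema6D-/-. Centring on the median gave 1245 higher and 1233 lower genes there, and 993 and 655 in WT. The gap between S-phase and mitotic medians by genotype kept its sign under each of these settings.

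An added 0.1 FPKM in place of 1 gave 6 members lower with LPS in the pair labelled Sema6D-/- (1443 of 10398 genes tested). By genotype it gave 1 lower without LPS (359 of 10322) and 3 lower with LPS (492 of 10078). For the difference it gave 1 lower (363 of 10680). An added 5 FPKM gave 1 lower with LPS in each genotype (188 of 10375 genes in WT and 293 of 10398 in the other). By genotype with LPS it gave 1 higher (174 of 10078) and 1 lower (126). For the difference it gave 2 higher (116 of 10680). A filter at 5 FPKM moved the S-phase minus mitotic gap with LPS in WT to 0.023. The leading transcript alone gave 4 higher with LPS in WT (1198 of 10277 genes) and 3 lower in the pair labelled Sema6D-/- (1023 of 10327). By genotype it gave 1 higher without LPS (368 of 10242) and 3 higher with LPS (413 of 9985). For the difference it gave 2 higher (346 of 10621) and 1 lower (332). A 1.5-fold rule gave 4 higher (1793 of 10375 genes) and 9 lower (1441) with LPS in WT. In the pair labelled Sema6D-/- it gave 4 higher (2288 of 10398) and 12 lower (2093). By genotype it gave 7 lower without LPS (601 of 10322) and 5 lower with LPS (797 of 10078). For the difference it gave 4 higher (595 of 10680) and 2 lower (610). Leaving out the filter on low values changed none of the member counts.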
